A study of Rattus norvegicus with 2 samples.

Results

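The genes described here are Otor and 9 genes of the cartilage program (Sox9, Sox5, Sox6, Acan, Hapln1, Comp, Matn1, Matn3 and Cnmd), read on 2 one-colour Agilent arrays of rat dental papilla cells. They were chosen by name, and Otor was picked for its large ratio between the arrays, so that ratio is given as a description and supports nothing. Of the 10 genes 7 had a probe whose RefSeq accession matched the symbol (9 probes, 18 spots), among 15168 genes matched on the array. Only 3 of them, Otor, Acan and Hapln1, were measured on both arrays, against 8231 of all genes. A gene counts as measured when at least 1 of its probes carried the scanner software's flag for a signal well above background on both arrays, and a probe without that flag on either is called at background. For Sox9, Sox5 and Matn3 no probe was matched, and they are not analysed here.

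Primary rat dental papilla cells, the mesenchyme of the tooth germ, came from postnatal days 1 to 3 and were used at passages 3 to 4 after expansion in 20% serum. The OS group spent 3 days in α-MEM with 8% serum, antibiotics, dexamethasone (0.1 mM), β-glycerophosphate (10 mM) and ascorbic acid (0.2 mM), as an odontogenic induction medium. The melatonin group had the same medium and time with 10 nM melatonin, so the induction agents are common to both. The study asked how melatonin changes expression during that differentiation. There was 1 array per group, and the sample titles do not settle whether an array read 1 culture or a pool. No value below has a replicate error between cultures, and no test between the groups was run.

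Cartilage is built by chondrocytes, whose identity depends on the transcription factor Sox9 and its partners Sox5 and Sox6. These factors switch on the genes for type II collagen, for the large proteoglycan aggrecan (Acan), for the link protein Hapln1 that ties aggrecan to hyaluronan, and for adaptor proteins such as Comp and the matrilins. Otor, otoraplin, is a small secreted protein with an SH3-like fold, known from the cochlea and cartilage and related to the cartilage protein Mia. Dental papilla and the cartilage of the face both derive from neural crest mesenchyme.

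Promoter sequence was at hand for 6 of the 10 genes (Otor, Sox6, Acan, Hapln1, Comp and Matn3). The 250 bases before the annotated start are shown for the 3 measured genes, to set the one gene with a large ratio beside the other measured ones. Letters are from RefSeq on build GRCr8, 5′ to 3′ on the gene's strand, and the capitals mark a CCAAT box read on the opposite strand.

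Otor, chr3:150868636-150868885, plus strand: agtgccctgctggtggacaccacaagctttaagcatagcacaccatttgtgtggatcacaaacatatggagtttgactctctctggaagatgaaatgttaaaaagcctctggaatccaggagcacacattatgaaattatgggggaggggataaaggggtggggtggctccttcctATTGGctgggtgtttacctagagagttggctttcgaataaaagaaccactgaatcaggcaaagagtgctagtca

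Acan, chr1:142390701-142390950, plus strand: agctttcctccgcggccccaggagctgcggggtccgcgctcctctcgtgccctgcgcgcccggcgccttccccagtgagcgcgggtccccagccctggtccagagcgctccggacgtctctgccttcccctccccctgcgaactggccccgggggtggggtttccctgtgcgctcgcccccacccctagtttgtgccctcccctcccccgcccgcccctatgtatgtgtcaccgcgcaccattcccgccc

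Hapln1, chr2:22366717-22366966, plus strand: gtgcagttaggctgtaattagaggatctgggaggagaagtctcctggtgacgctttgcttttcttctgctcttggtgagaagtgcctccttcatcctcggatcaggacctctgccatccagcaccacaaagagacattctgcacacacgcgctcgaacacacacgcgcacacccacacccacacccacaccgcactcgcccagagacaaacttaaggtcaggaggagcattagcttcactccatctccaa

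The Otor window was poor in CG pairs, with 1 CG and 46.0% G or C. The Acan window held 24 CG at 73.6%, and that of Hapln1 9 CG at 54.0%. Over 27457 rat promoters the median was 6 CG (quartiles 2 and 16) and 52.0% G or C (quartiles 44.4% and 60.8%). The windows were searched on both strands for a SOX-type heptamer, CAAAG or CAATG preceded by 2 bases that are each A or T. That heptamer was in 1 of the 6 windows, the one of Sox6, and in 22.2% of all promoters. CCAAT was in 3 of 6 (Otor, Sox6 and Matn3) against 34.3% of all, and TATAAA in 0 of 6 against 13.1%. A CCAAT match cannot be part of the heptamer on the same strand. A match is a description of letters only, and the arrays do not read binding. Probe sequences were not used here.

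Of the 3 measured genes only Otor gave a large difference. Its bright probe (A_64_P023102, 1 spot) read 2736 units of processed signal on the OS array, with a software error of 274, against 478 on the melatonin array, with an error of 48.3. In these unscaled units the OS value was far above the melatonin value, and the error ranges did not overlap. Since Otor was picked for this ratio, the gap between the ranges supports nothing. These errors come from the scanner software's own model for 1 spot and do not cover differences between cultures. In bulk RNA, fewer cells of a type and less RNA per cell cannot be told apart.

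The arrays differed in brightness as a whole, with a 75th percentile of the processed signal of 428 on the OS array against 329 on the melatonin array. Values were therefore scaled, as log2 of the signal minus log2 of that percentile. On this scale the Otor signal was 2.68 on the OS array against 0.54 on the melatonin array. The log2 ratio, melatonin over OS, was -2.13 (spot error 0.20), a signal 4.39-fold lower with melatonin. Before any scaling or detrending, the median pixel brightness of the spot was 2766 over a local background of 23.0 on the OS array, and 543 over 19.5 on the melatonin array. After subtraction the OS spot was 5.24 times as bright. This value is not corrected for the general gap in brightness between the arrays.

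The neighbourhood of this spot did not share the difference. Within 5 rows and 5 columns lay 66 other measured spots, with a median log2 ratio of 0.086 and a range from -0.96 to 1.01. The brightest of the 24 spots within 2 rows and columns read 6239 on the OS array against 5002 on the melatonin array. No outlier flag was set on the Otor spot, and no spot outside the controls was saturated on either array.

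The other Otor probe gave no reading that could be set beside it. Probe A_64_P023098 (1 spot), assigned to the same transcript NM_001108960, read 4.19 (error 4.17) on the OS array against 8.32 (error 6.84) on the melatonin array. On the OS array this lay within the 150 usable negative control spots, which ran from 4.12 to 5.55. The melatonin value was above the highest negative control spot, 6.92, and carried the flag for a positive signal but not the one for well above background. The log2 ratio of this probe was 1.37, and that of the negative control spots, which match no transcript, had a median of 0.88. One Otor probe was thus bright on both arrays and the other at background, and with both averaged the log2 ratio was -0.38. Which probe reads the Otor transcript better was not tested.

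**Figure D1:**
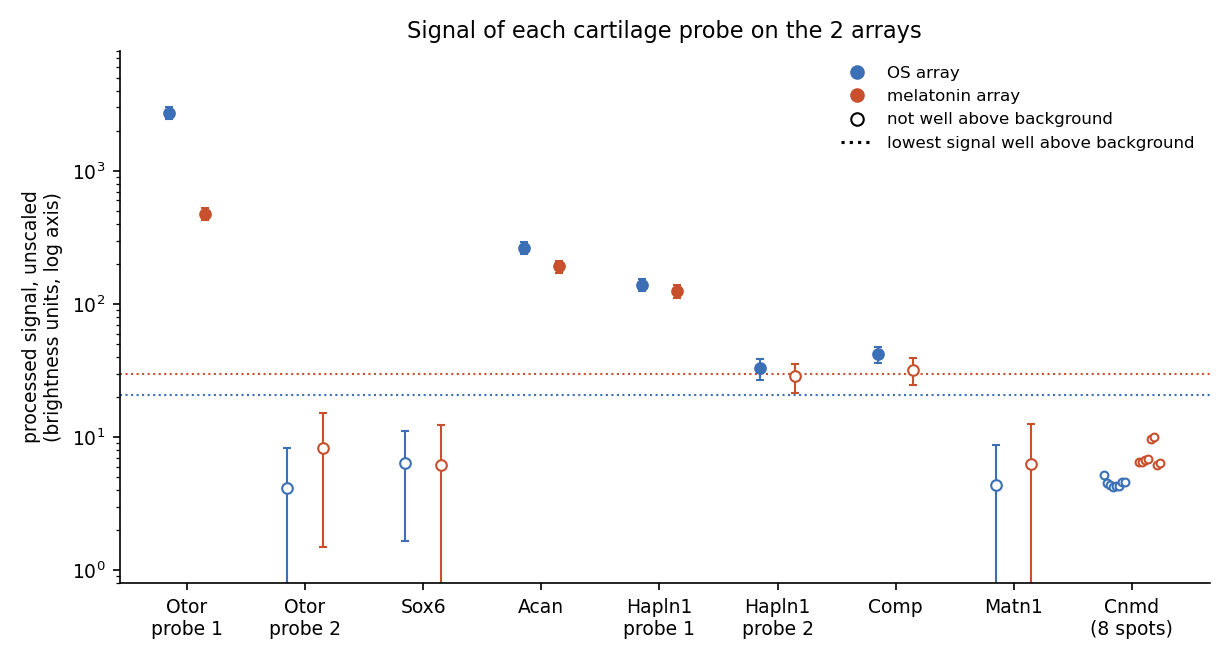
Processed signal (brightness units, log axis, unscaled) of each matched probe on the OS array and the melatonin array, with the software's error for single spots and the 8 usable spots for Cnmd. Filled points are well above background and dotted lines mark the lowest such signal on each array. The bright Otor probe reads 2736 and 478, while the other Otor probe, Sox6, Matn1 and Cnmd lie near background; levels of different probes are not comparable.

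The Otor ratio stood 2nd from the bottom of 8231 measured genes and 12th from the bottom of 14626 measured probes, those without a symbol included. Across all genes the median log2 ratio was 0.039 and the SD 0.29, and across the 6352 genes read by 1 spot the SD was 0.31. Of all measured genes 58, or 0.705%, were at least 2-fold lower with melatonin, and 21, or 0.255%, at least 2-fold higher. Otor was the 1 gene of the 3 measured that passed 2-fold, in the lower direction, and since it was picked for that ratio the count says nothing beyond it. Among 2058 genes of similar mean signal (1 of 4 equal bins), 11 (0.534%) were at least 2-fold lower.

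Some markers of other cell types also read lower on the melatonin array, and others did not. Lyz2, lysozyme of macrophages and other myeloid cells, was the single gene below Otor, at -2.47 by 1 spot (340 with OS alone, 47.1 with melatonin). Of 8 macrophage markers 6 were measured, with a median of -0.34. Of these 6, 4 were below 0, as were 3491 of all 8231 measured genes, while Csf1r (0.20) and Aif1 (0.072) were above. The scaled levels of the 6, summed on the linear scale and then put in log2, gave 1.80 with OS alone and 1.34 with melatonin. Levels of different probes are not comparable, so bright probes weigh most in this sum. Lyz2 had the largest fall among the 6, from -0.33 to -2.80 in scaled log2 signal. Cd14, the brightest, went from 0.83 to 0.76. The defining markers Ptprc and Adgre1 were at background on both arrays. Of 6 endothelial markers, Erg (-0.087) and Cdh5 (-0.085) were measured on both arrays and lay near 0. Of all probes on the array, 55.2% were well above background with OS alone and 48.4% with melatonin, so the OS array passed more probes throughout. Pecam1 and Kdr passed the flag on the OS array only, at least 2.59-fold and 1.98-fold lower with melatonin. Tek and Emcn were at background on both. The part of these cells in the Otor value was not tested.

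Genes with one probe measured and another at background, as for Otor, occurred elsewhere on the arrays. Of 505 genes with exactly 1 measured probe and at least 1 probe at background, 8 (1.58%) showed a decrease of 2-fold or more at the measured one. Otor, picked for its ratio, is among these 8. Of 1124 genes with several measured probes, 3 (0.267%) were at least 2-fold lower in the mean of their probes. Counted by probe and not by gene, 13 of the 2341 probes of these genes (0.555%) were at least 2-fold lower. For 2 of these 13 another probe of the gene was also at least 2-fold lower, and for 3 no other probe was below 0. These counts describe probes chosen by the 2-fold threshold and say nothing of the Otor probes. Of the 58 lower genes 53 rested on 1 spot.

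With 2 arrays, likeness to Otor can only mean a similar difference. The nearest log2 ratios were those of Hmx1, a homeobox transcription factor (-2.12), Tubb4a, a β-tubulin (-2.08), Rps6kb1, a ribosomal S6 kinase (-2.07), and RT1-CE4, a class I histocompatibility gene (-1.95). Each was read by 1 spot of its only matched probe. The values of Tubb4a and RT1-CE4 are uncertain, as both have near-identical relatives and whether the probes also read those was not tested. None of these 4 is in the cartilage lists.

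Acan, aggrecan, the main proteoglycan of cartilage, was measured by 1 probe with nearly equal scaled signals. It read 264 (error 26.7) on the OS array against 192 (error 20.3) on the melatonin array, or -0.70 and -0.78 on the scaled log2 scale. The log2 ratio was -0.078, smaller than its spot error of 0.21, and 28.6% of all measured genes had a lower ratio. Most of the gap between the unscaled signals was the gap between the arrays.

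Hapln1, the link protein that holds aggrecan on hyaluronan, had a small ratio, close in size to its spot error. Its brighter probe read 139 (error 14.6) on the OS array against 125 (error 14.04) on the melatonin array, which is -1.62 and -1.39 after scaling. The log2 ratio was 0.23 with a spot error of 0.22, and 81.4% of all measured genes had a lower ratio. A further Hapln1 probe was dimmer, at 32.9 (error 6.04) and 28.6 (error 7.04), and well above background on the OS array only. Its log2 ratio was 0.18 with a spot error of 0.44, and the signals were too close to background to set a bound. Acan and Hapln1 thus lay far from the Otor ratio, which was picked for its size.

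Comp, a pentameric thrombospondin that links collagen fibrils, was at the edge of detection. It read 41.8 (error 5.95) on the OS array against 32.03 (error 7.52) on the melatonin array, well above background on the OS array only. The scaled signals were equal within that error (log2 ratio -0.0038, spot error 0.40), and the lower bound on the fold was 1.00, which sets no difference. A difference in Comp was not detectable at this signal.

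Sox6, Matn1 and Cnmd were at background on both arrays. Sox6, the SoxD partner of Sox9, read 6.38 and 6.18, with errors of 4.73 and 6.18, and carried the flag for a positive signal on the OS array only. Matn1, matrilin-1, a filament-forming adaptor of cartilage, read 4.39 and 6.28, with errors of 4.38 and 6.27. Both arrays read Matn1 at the level of the negative control spots, whose medians were 4.49 on the OS array against 6.39 on the melatonin array.

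Cnmd, chondromodulin, a cartilage protein that blocks vessel growth, was printed in 10 spots and read by the most spots of the 10 genes. Of these 8 were usable on both arrays, and 0 of the 10 were well above background on either. On the OS array the 8 spots ran from 4.24 to 5.17 with a median of 4.44, and on the melatonin array from 6.19 to 9.98 with a median of 6.64. On the melatonin array 2 of the 8 spots, at 9.69 and 9.98, carried the flag for a positive signal and lay above the highest negative control spot of 6.92, and on the OS array 0 of 8 carried it. These are unscaled units, in which the negative control spots were also higher on the melatonin array. No ratio is drawn for these 3 genes.

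**Figure D2:**
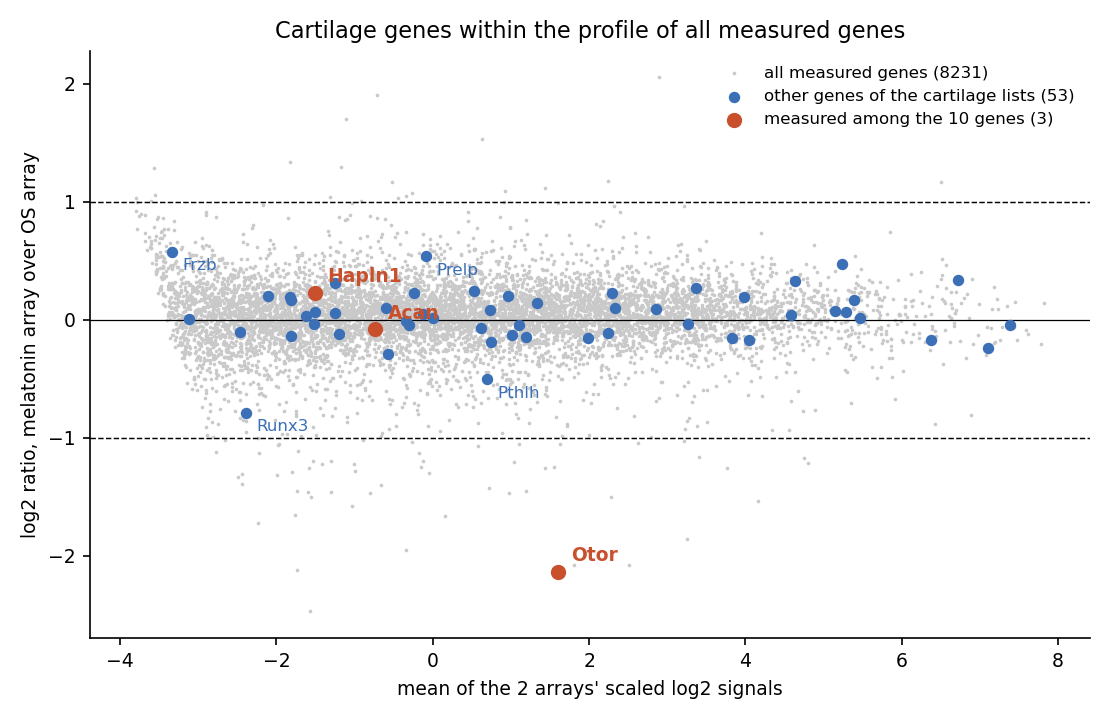
Log2 ratio of the melatonin array over the OS array against the mean scaled log2 signal, for 8231 measured genes (grey), 53 other genes of the cartilage lists (blue) and the 3 measured among the 10 genes (red). Dashed lines mark 2-fold. Otor at -2.13 lies far below the band that holds Acan (-0.078), Hapln1 (0.23) and every blue point.

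Close relatives of the 10 genes are given as a description, since Otor was picked for an extreme ratio. Their families, with the 10 genes left out, had 25 listed genes, 19 of them on the array and 11 measured. Of these 6 had a log2 ratio above 0 and 5 below, beside 4740 and 3491 of all 8231 measured genes. The family median was 0.087 against 0.039 for all measured genes. In either direction 0 passed 2-fold, where 0.705% of all genes were lower and 0.255% higher. Mia, a close relative of Otor, passed the background flag with OS alone, at 34.9 against 20.3 with melatonin, and its bound was too low for a fold. Mia2 and Mia3 had no matched probe.

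In the Sox family 2 of 9 genes were measured. Sox10, a SoxE factor of neural crest and glia, had scaled log2 signals of -0.43 and -0.72 and a ratio of -0.29. Sox13, a SoxD relative of Sox5 and Sox6, stood at -1.14 and -1.26, a ratio of -0.12. It turned to 0.096 under normexp, a setting that takes the median spot signal, another background correction and an offset of 50 together, and to 0.56 where a further Sox13 probe, at background, was averaged in. Sox8, Sox11 and Sox12 were at background on both arrays, and Sox4 had no matched probe.

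Among lecticans and link proteins, Vcan, versican, the proteoglycan of loose mesenchyme, agreed between probes. Its 2 probes read log2 ratios of 0.27 and 0.27, the first from 2.11 to 2.38 and the second from 4.35 to 4.62 on the scaled scale. Hapln3, a link protein of vessel walls and other tissues, had a ratio of 0.099. Hapln2 passed the flag with OS alone, and Ncan, Bcan and Hapln4 were at background.

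The remaining families were as close to 0. Matn4, matrilin-4, had a log2 ratio of 0.10. Thbs1 and Thbs2, thrombospondins of wound and connective tissue, stood at -0.0071 and 0.087, the first changing sign under 3 of 11 other settings. Tnmd, tenomodulin, the tendon relative of Cnmd, stood at -0.17 with bright signals on both arrays (4.14 and 3.96 after scaling). Of the Itm2 proteins, which share the BRICHOS domain with Cnmd, Itm2b stood at 0.33, Itm2c at -0.11 and Itm2a at 0.19, the last turning to -0.066 under normexp. Under normexp Thbs2 moved to 0.31 and Itm2c to -0.27. All 11 genes of these families lay within 1.5-fold in the values as reported.

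The cartilage collagens were measured for 2 of 8 genes. Col2a1, the main fibrillar collagen of cartilage, read 113 on the OS array against 99.6 on the melatonin array, a scaled log2 ratio of 0.19. Col9a2, a chain of the type IX collagen that coats those fibrils, read 6410 and 4419, a ratio of -0.16. This ratio moved to -0.42 under normexp and to -0.017 with the median of neighbouring spots removed. Col9a1 had 3 probes, of which 1 was well above background on the OS array alone, at 45.3 against 20.4, at least 1.17-fold lower with melatonin. Col11a2 passed the flag with OS alone, too dim for a fold.

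Other matrix proteins of cartilage were measured for 5 of 15 genes, with a median log2 ratio of 0.34 against 0.039 for all genes. In this list 0 passed 2-fold, where 0.705% of all genes were lower and 0.255% higher. The higher values were those of the leucine-rich proteoglycans Prelp (0.54) and Fmod (0.47) and of Mgp, matrix Gla protein, an inhibitor of calcification (0.34). Cilp stood at 0.017 and Epyc, epiphycan, at -0.15. Chad, Cilp2, Clec3a, Cytl1, Crtac1 and Prg4, the last being lubricin of the joint surface, were at background on both arrays.

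The regulators of chondrocytes outside the Sox family were measured for 6 of 13 genes. Of these 6, 5 were below 0, as were 3491 of all 8231 measured genes. In this list 0 passed 2-fold, where 0.705% of all genes were lower and 0.255% higher. Runx3, a Runt factor of maturing chondrocytes, read 108 on the OS array against 47.9 on the melatonin array. Its log2 ratio of -0.79, or 1.72-fold lower, was the lowest after that of Otor in the cartilage lists, and it shrank to -0.23 under normexp. Hif1a stood at -0.19 and Zbtb20 at 0.17 (0.37 under normexp), while Barx1, Wwp2 and Trps1 lay between -0.15 and -0.072. The median of the list was -0.12.

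Signals that steer chondrocyte growth were measured for 11 of 18 genes. Of these, 7 were above 0 and 4 below, beside 4740 and 3491 of all 8231 measured genes. The list median was 0.067. Frzb, a Wnt antagonist of joint cartilage, stood at 0.58 but was dim on both arrays (34.6 and 39.6). Pthlh, the ligand that holds back chondrocyte maturation, stood at -0.50, and its receptor Pth1r at 0.0040. Bmpr1b, a BMP receptor needed for cartilage condensation, stood at 0.31. Bmp7 passed the flag with melatonin only, at 31.7 units, where the lowest signal well above background was 29.6. Its bound was 1.99-fold higher. After scaling, the lowest signals well above background were -4.37 for OS and -3.47 for melatonin, with Bmp7 at -3.38 under melatonin. Most of the bound thus came from this gap, and the negative control spots had a median log2 ratio of 0.88. No rise is drawn for Bmp7. Ihh, the partner of Pthlh in the growth plate, was at background on both arrays.

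Enzymes of proteoglycan synthesis (9 of 15 measured, median 0.029) and genes of cartilage matrix breakdown (9 of 11 measured, median 0.065) had narrow ranges. The first ran from -0.13 for Ugdh to 0.20 for Has2, the hyaluronan synthase, with Xylt2 at 0.081. The second ran from -0.24 for the inhibitor Timp2 to 0.23 for the aggrecanase Adamts5. These are the values as reported. Timp2 moved to -0.52 under normexp and to -0.087 with the median of neighbouring spots removed. In this list Adamts1 was read by 10 spots, with a ratio of 0.17 and a spot SD of 0.18, and the collagenase Mmp13 by 9 spots, at 0.14 with a spot SD of 0.15. Across 1033 probes with at least 8 usable spots the median spot SD of the log2 ratio was 0.16, a measure of the scatter of single spots and not of a mean over several.

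Taking these pathway lists as 1, with the 10 genes left out, 42 of 80 genes were measured. Of these, 25 were above 0 and 17 below, beside 4740 and 3491 of all 8231 measured genes. The pathway median log2 ratio was 0.035, beside 0.039 over all measured genes. In either direction 0 of 42 passed 2-fold, where 0.705% of all genes were lower and 0.255% higher. The lists and the 10 genes were described and not tested, and nothing is called particular to them. Of the 53 other cartilage genes that could be read, 0 passed 2-fold in either direction. Otor was picked for an extreme ratio, so its distance from these genes follows largely from that choice.

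**Figure D3:**
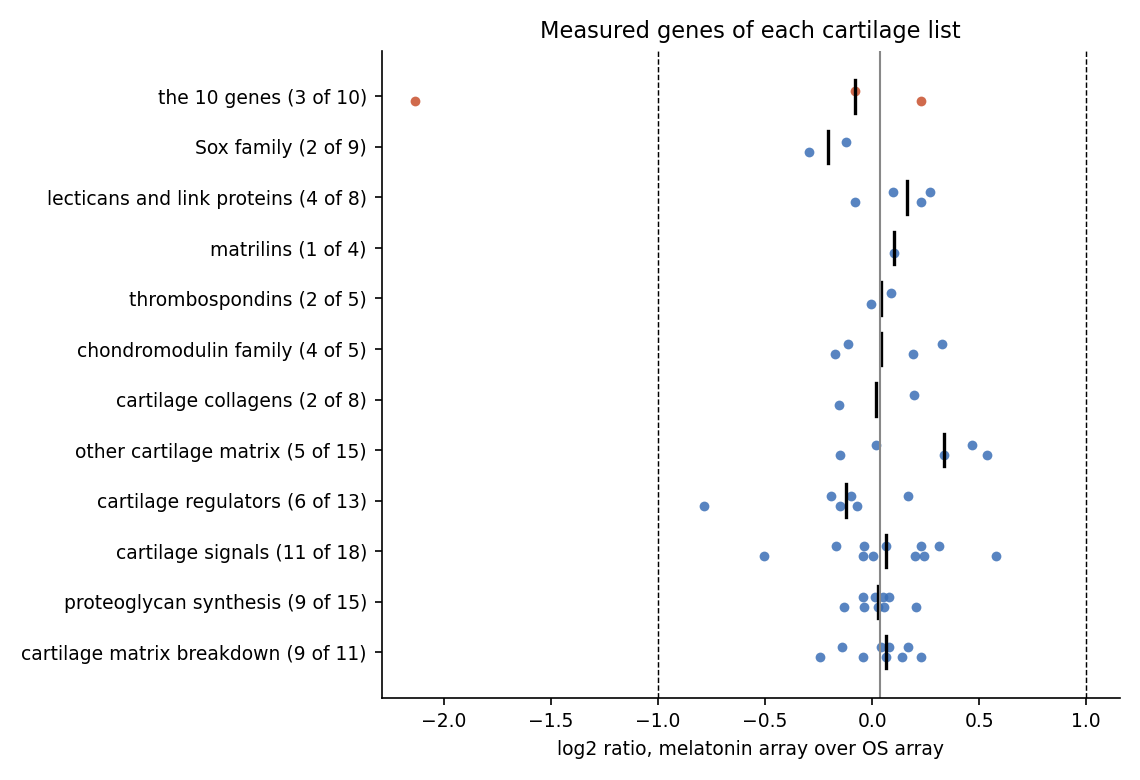
Log2 ratio of the melatonin array over the OS array for each measured gene (points) of the cartilage lists, with the list median (black bars), the median of all measured genes (grey line) and 2-fold (dashed lines); counts are measured of listed genes, and Acan and Hapln1 also appear in their family. Otor is the one point beyond a dashed line.

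The labelled cell type was checked against its markers. Of 18 dental papilla markers on the array 17 were measured, among them Msx1, Pax9, Lhx8 and Barx1. The list also holds broad mesenchymal genes such as Vim, Col1a1, Col3a1 and Fn1. The count therefore cannot tell these cells from other mesenchyme. Ratios ran from -0.53 (Dlx3) to 0.55 (Lhx6) with a median of 0.019. The odontoblast genes Dspp and Dmp1 were at background on both arrays. Tendon markers were measured for 5 of 5 matched genes (median -0.17, with Postn at 0.75, Egr1 at -0.32 and Tnc at -0.21), and osteoblast and odontoblast markers for 4 of 9 (median 0.068). Epithelial markers were measured for 1 of 8, Tp63, at -0.029 as the mean of 2 probes that disagreed (-0.50 and 0.45). Glial markers were measured for 2 of 6 (Sox10 at -0.29 and S100b at 0.15).

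**Figure D4:**
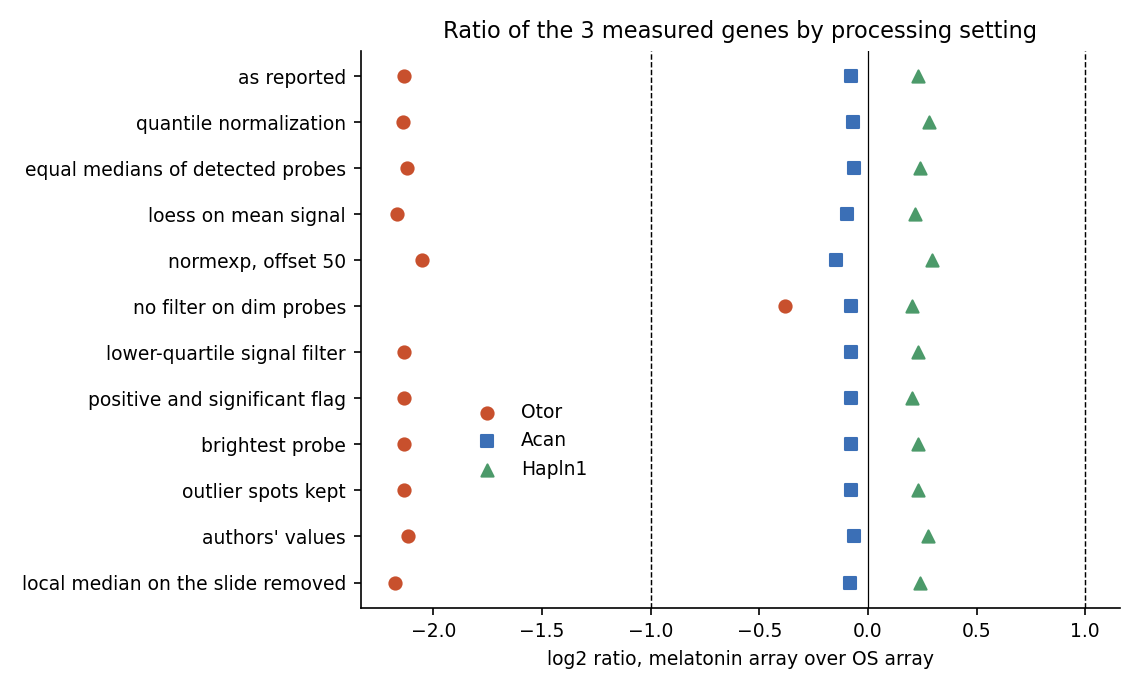
Log2 ratio of Otor, Acan and Hapln1 (melatonin array over OS array) as reported and under 11 other processing settings, with dashed lines at 2-fold. Otor stays between -2.18 and -2.05 except where dim probes are kept, where the average of its 2 probes is -0.38, and Acan and Hapln1 keep their sign.

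Under 10 of 11 other settings of scaling, background correction and filtering, the Otor ratio lay between -2.18 (the median of neighbouring spots removed) and -2.05 (normexp), and it was -2.11 in the authors' deposited log2 values. The exception was the setting that keeps dim probes, which averages in the probe at background. Acan ranged from -0.15 to -0.063 and Hapln1 from 0.20 to 0.29 over the 11 settings. The measured difference in Otor therefore rests on 1 spot of 1 probe on each of 2 arrays, and how it would vary between cultures was not measured.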

How the data were processed

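Total RNA of each group was labelled with Cy3 and hybridised to 1 array, per the labels' protocols. The deposited scanner files hold spot intensity values from Agilent Feature Extraction 11.0.1.1 on array design 028282 (rn4), per the file headers, as background-subtracted and detrended processed signals, with an error and flags per spot. The authors' deposited table holds log2 values with normalization not given in the sources used here. They correlated with log2 of the scanner signal at 0.9997 (OS) and 0.9988 (melatonin) across probes, and both columns had a median of 5.10.

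Outlier spots (937 outside the controls) were left out, log2 signals were scaled to each array's 75th percentile over probes, repeated spots were averaged, and each gene took the mean of its probes flagged as well above background (by the majority of usable spots) on both arrays. Symbols came from unversioned RefSeq accessions (GRCr8 table, names only), for 18005 of 30367 probes (59.3%). A bound sets the signal of a gene seen on 1 array against the higher of its other signal and the lowest signal well above background there (20.7 on the OS array, 29.6 on the melatonin array, 2-fold being the threshold for calls). With 1 array per group the number of arrays limits the precision and no test was run. The genes and lists were chosen with earlier results of these data known. Named were the 10 genes, all measured relatives and cartilage collagens, the 4 ratios nearest to Otor, and, from other lists, members past 2-fold or else the 3 largest ratios. Other names were chosen after their values were seen. Calculations used Python 3.11.15, numpy 2.4.6, pandas 2.3.3 and limma 3.58.1, and were tested on simulated data.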

Additional observations from a re-analysis of the deposited data

How the results depend on the processing

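No paired analysis was possible because each group holds 1 array. The 11 settings were quantile normalization, equal medians, loess, normexp with an offset of 50 on the median spot signal, no filter on dim probes, a lower-quartile signal filter, the flag for a positive signal, the brightest probe, outlier spots kept, the authors' values and removal of the local median. With no filter, 7 of the 10 genes counted as measured, 0 were at least 2-fold lower and 1 (Cnmd, at background) higher, 4 pathway genes were higher, and all genes gave 229 lower and 1860 higher. With the positive-signal flag 155 genes were lower and 612 higher, 4 pathway genes were higher, and 4 of the 10 genes counted as measured. Normexp gave 35 lower and 9 higher genes, and the lower-quartile filter 37 lower. At 1.5-fold 217 were lower and 167 higher, and at 3-fold 10 and 3. By construction the filters change which probes enter and the thresholds only the call. For normexp, which changes the input signal, the correction and the offset together, the cause was not tested. The count of 1 lower gene among the 10 was the same under every other setting and at both thresholds. The pathway median ranged from 0.018 (loess) to 0.11 (no filter). The median of all genes ranged from 0.0055 to 0.16, and was moved by over 0.1 only with no filter. Signals near background limit Comp, Sox6, Matn1 and Cnmd.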
